A study of Mus musculus with 6 samples.

Results

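The expression of genes in the adult mouse ovary was compared with that in the adult testis across the whole genome. The comparison rests on 2 arrays, titled ovary and testis, adult, of the 6 in the series. The adult ovary array carried RNA from the ovaries of female C57BL/6 mice at 10 weeks, and the adult testis array RNA from the testes of males of that strain and age. Both were whole gonads with no treatment named. Total RNA from a spin-column kit was amplified to biotin-labelled cRNA and hybridized to an Affymetrix oligonucleotide array, on which a gene is read by 1 or more probe sets. The sources used here give neither the stage of the ovarian cycle nor the number of animals behind an array. The other 4 arrays held fetal and neonatal ovaries and testes, and they entered here only through the common scale, the floor and the choice of the probe set that stands for a gene, and once beside the X chromosome.

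The adult ovary holds oocytes enclosed in follicles of granulosa and theca cells, and corpora lutea, the progesterone-secreting bodies that form from follicles after ovulation, in a stroma rich in vessels. The adult testis is filled mainly with germ cells on the way to sperm, supported by Sertoli cells inside the tubules and by androgen-making Leydig cells between them. Spermatogenic cells are known for replacing many housekeeping proteins with forms of their own, often encoded by autosomal copies of X-linked genes, since the X chromosome is silenced during male meiosis.

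Each array was multiplied to the same 2% trimmed mean, and signals below 75.3, the median of all scaled signals, were raised to that floor. A gene was read by the probe set with a single symbol and the highest mean signal over the 6 arrays, and it was called higher or lower in adult ovary at a ratio of 4 or more, that is, at a log2 ratio of 2 or -2. Of 18193 genes, 14349 were above the floor on 1 or both adult arrays and 10119 on both. With 1 array a side there is no replicate check and no test. The spread between the 2 brightest probe sets of a gene was 0.65 on the log2 scale over 3713 genes with both above the floor. It is a robust estimate of an SD, from the median absolute deviation, and gives little weight to large disagreements. This spread is the only measure of error, and it covers no variation between animals or arrays. The size of a ratio against an array at the floor is known only from below. It is introduced by the words at least, and such a log2 ratio carries the sign ≥, or ≤ where adult ovary was at the floor.

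The adult ovary array had 2166 genes called higher (15.1% of the 14349) and 1980 called lower (13.8%), relative to adult testis. The testis array was at the floor for 578 of the higher genes, and the ovary array for 1255 of the lower ones. In whole tissue, fewer cells of a type and less RNA per cell cannot be told apart. The median log2 ratio was 0.35 over the genes above the floor on 1 or both arrays. The adult arrays also differed in technical readings: the 9 hybridization controls averaged 2206 deposited units on the ovary array and 1170 on the testis array, and the 3' to 5' signal ratio was 1.32 on the ovary array and 2.36 on the testis array for Gapdh, and 2.91 on the ovary array and 1.81 on the testis array for Actb. Their part in the results was not tested. With the arrays scaled to those controls in place of the trimmed mean, called the control scaling, 894 genes were higher (5.78% of 15467) and 3216 lower (20.8%), so every count of higher genes depends on the scale. With a gene read by the mean of all its probe sets, 8.16% of genes were higher and 11.3% lower.

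**Figure D1:**
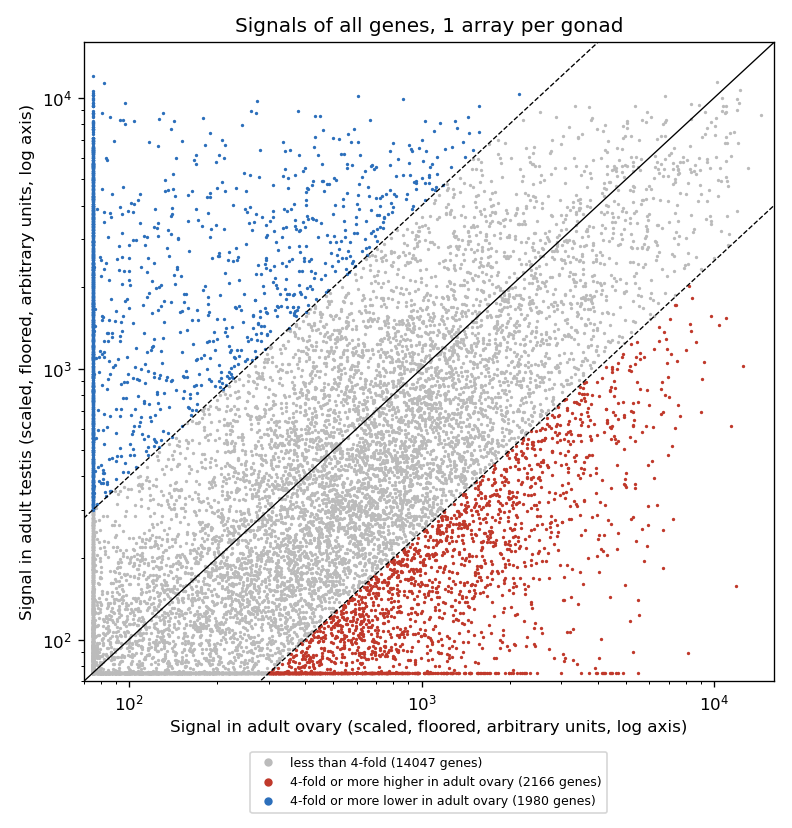
Scaled signal of each gene in adult ovary (x axis) against adult testis (y axis), both on log axes in array intensity units, with dashed lines at a ratio of 4 in either direction and a solid line at equal signals. The 2166 genes higher in adult ovary lie below the dashed lines and the 1980 lower genes above them, and 1255 of the lower genes form the column at the ovary floor of 75.3.

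Most marker lists went with the labels of the tissues, but that of Leydig cells did not. Summed over the 11 granulosa markers, the signal was 52215 in adult ovary and 9358 in adult testis, and 9 of the 11 were higher. Summed over 15 oocyte markers it was 14687 in adult ovary and 1776 in adult testis, with 11 higher. The 16 spermatid markers summed to 1224 in adult ovary and 127795 in adult testis, and all 16 were lower. Of 14 Sertoli markers 5 were lower in adult ovary and 1, Amh, which granulosa cells make too, was higher. Of 11 spermatogonia markers 10 were above the floor, 1 of them higher and 2 lower. The 6 Leydig markers summed to 28859 in adult ovary and 5836 in adult testis. Of them 3 were higher in adult ovary, Star, Cyp11a1 and Hsd3b1, which were also listed for corpus luteum and theca. Another, Hsd17b3, was lower.

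Among genes above the floor on each adult array, the largest ratios in the ovary's favour belonged to an enzyme, a Wnt antagonist and a kinase subunit. Ephx2, the soluble epoxide hydrolase, read 8124 in adult ovary and 89.3 in adult testis, 91.0-fold higher. Sfrp4, a secreted Wnt antagonist, read 11851 in adult ovary and 158 in adult testis, 75.1-fold higher. Prkar2b, a regulatory subunit of the cAMP-dependent protein kinase, read 5508 in adult ovary and 75.4 in adult testis, 73.1-fold higher, and its probe sets gave log2 ratios between 3.06 and 6.19. The next of these were Htra1, a secreted serine protease (5.88 on the log2 scale), Sgk1, a kinase induced by steroid hormones (5.64), and Ppic, a peptidyl-prolyl isomerase (5.56). Among genes at the floor in testis, the brightest in adult ovary were Nr5a2 at 4884, Akr1c14 at 4691, Nupr1 at 4608, Fosl2 at 4478, Cnmd at 4425 and Akr1c18 at 4416. Nr5a2 is a nuclear receptor of granulosa and luteal cells, Akr1c14 and Akr1c18 are aldo-keto reductases that act on steroids, Nupr1 is a stress-induced nuclear protein, Fosl2 is an AP-1 subunit and Cnmd is an inhibitor of vessel growth. A second probe set of Fosl2 gave a log2 ratio of 0.90.

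Among genes above the floor on each adult array, the largest ratios in the testis's favour belonged mostly to genes of sperm and its precursors. Ldhc, the lactate dehydrogenase of spermatogenic cells, read 82.1 in adult ovary and 11334 in adult testis, 138-fold lower, and Odf2, which builds the outer dense fibres of sperm tails, read 81.1 in adult ovary and 8795 in adult testis, 108-fold lower. St6galnac2, a sialyltransferase, Ropn1l, a protein of the sperm fibrous sheath, Spata33 and Tcp11 had log2 ratios of -6.62, -6.62, -6.46 and -6.44. Another probe set of Odf2 had only -0.83. The brightest testis genes at the floor in ovary were the protamine Prm2 at 12070.0 in adult testis, Meig1 at 10548, Fabp9 at 10403, the antizyme Oaz3 at 10273, the transition protein Tnp1 at 10201 and Spata4 at 10201. Prm2 and Tnp1 pack DNA in the sperm head, and Meig1 is needed for spermatids to form flagella.

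The listed metabolic genes leaned to the ovary. The list of glycolysis holds somatic forms only. Testis forms of metabolic enzymes such as Pgk2, Pgam2 and Pdha2, all lower in adult ovary, were counted with the isoform pairs below. The lean therefore describes these lists and not metabolism as a class. Over 12 lists with 155 genes measured, 151 were above the floor on 1 or both arrays, and 48 of these were higher (31.8%) and 9 lower (5.96%) in adult ovary. Their median log2 ratio was 1.52, beside 0.35 over all genes. With arrays scaled to the hybridization controls, 24 of 153 were higher and 18 lower, and with the mean of all probe sets 36 of 151 were higher and 8 lower.

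Of 9 measured steroid synthesis genes 5 were higher and 2 lower in adult ovary, with a median log2 ratio of 3.02. Star, which carries cholesterol into mitochondria, read 2072 in adult ovary and 256 in adult testis, 8.09-fold higher. Cyp11a1, which makes pregnenolone from cholesterol, read 11368 in adult ovary and 612 in adult testis, 18.6-fold higher, although its other probe set gave a log2 ratio of only 0.40. Hsd3b1, which makes progesterone from pregnenolone, was 12.2-fold higher, and Hsd17b1, the granulosa enzyme that forms estradiol from estrone, was at least 54.8-fold higher. Akr1c18, which inactivates progesterone in regressing corpora lutea, was at least 58.7-fold higher.

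Enzymes of androgen and estrogen handling in the testis ran the other way. Hsd17b3, the Leydig cell enzyme that makes testosterone, read the floor in adult ovary and 448 in adult testis, at least 5.95-fold lower. Sult1e1, the estrogen sulfotransferase, read the floor in adult ovary and 497 in adult testis, at least 6.61-fold lower. Cyp17a1, the branch-point enzyme for androgens that theca and Leydig cells share, read 1999 in adult ovary and 2599.6 in adult testis and was not called. Leydig cells also express Star, Cyp11a1 and Hsd3b1, so these genes do not separate the cell types of ovary and testis.

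Of 16 genes of cholesterol uptake and storage 7 were higher and 1 was lower. Scarb1, the receptor that takes cholesterol ester from HDL, read 4543 in adult ovary and 897 in adult testis, 5.07-fold higher. Apoe, the apolipoprotein, read 6232 in adult ovary and 395 in adult testis, 15.8-fold higher, and Lipa, the lysosomal cholesterol esterase, read 1926 in adult ovary and 169 in adult testis, 11.4-fold higher. Vldlr, a lipoprotein receptor, Insig1, a brake on sterol synthesis, and the cholesterol transporters Npc1 and Abca1 were also higher, at log2 ratios of ≥3.20, 2.58, ≥2.35 and 2.01. The exception was Lipe, the hormone-sensitive lipase, with 359.8 in adult ovary and 2531 in adult testis, 7.03-fold lower. Scaled to the hybridization controls, 4 of the 16 were higher and 2 lower.

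In cholesterol synthesis 3 of 17 genes were higher and none lower, a share near that of all genes. With the control scaling 1 was higher and 3 were lower, and with the mean of all probe sets 1 was higher. These were Hsd17b7 (3.68 on the log2 scale), Msmo1 (2.79) and Sc5d (2.40), enzymes of the later steps. Fdft1, the squalene synthase, had a log2 ratio of -1.99, just short of the limit on the testis side, with 1494 in adult ovary and 5921 in adult testis. For Cyp51, the sterol demethylase, the probe set used here gave -1.09 and the other 1.74.

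Fatty acid breakdown was higher in adult ovary in 6 of 15 genes, with none lower, but with the control scaling in 1 of 15, near the 5.78% of all genes. With the mean of all probe sets 5 of 15 were higher. Echs1, the enoyl-CoA hydratase of the mitochondrial spiral, read 2481 in adult ovary and 264 in adult testis, 9.38-fold higher. The others were the thiolase Acaa2 (2.59 on the log2 scale), the acyl-CoA dehydrogenases Acadl (2.52), Acadm (2.32) and Acadvl (2.08), and the electron carrier Etfa (2.50). In fatty acid synthesis 2 of 12 were higher, the elongases Elovl6 (4.43) and Elovl1 (2.98), which is near the share of all genes. In the citric acid cycle 2 of 16 were higher, Idh3g (3.12) and Suclg2 (2.23), also near it, and 1 with the control scaling.

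Sugar metabolism split. Among 13 somatic forms of glycolytic enzymes 3 were higher, namely the X-linked kinase Pgk1 (3.15 on the log2 scale), the mutase Pgam1 (2.41) and the phosphofructokinase Pfkl (2.16), and the list's median was -0.06. Hk1, the first kinase of the pathway, was lower, with 1026 in adult ovary and 8182 in adult testis, 7.97-fold lower. In the pentose phosphate pathway, which supplies NADPH and ribose, 3 of 6 genes were higher: Taldo1 (3.16), Tkt (2.59) and Pgd (2.51). Under the control scaling 1 glycolytic enzyme was higher and 2 lower, and 1 of the 6 pentose phosphate genes was higher, as with the mean of all probe sets. That mean left 2 glycolytic enzymes higher.

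Antioxidant enzymes were higher in 7 of 20 cases and lower in 1, or in 3 and 2 with the control scaling. Gpx3, the secreted glutathione peroxidase, read 6391 in adult ovary and 314 in adult testis, 20.3-fold higher. Cat, the catalase, read 2830.2 in adult ovary and 330.2 in adult testis, 8.57-fold higher, and Gpx1, the cytosolic peroxidase, was 6.77-fold higher. Gstm5, a glutathione transferase, was the lower one, with 2158 in adult ovary and 10335 in adult testis, 4.79-fold lower. Gpx4, a peroxidase that also forms part of the sperm midpiece capsule, had a log2 ratio of -1.15 and was not called.

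Polyamine genes went in both directions within a list of 8, with 2 higher and 2 lower (1 and 2 with the control scaling, 2 and 1 with the mean of all probe sets), and the sign of the list's median, 0.88, turned to -0.09 with arrays scaled to the hybridization controls and to -0.16 with the mean of all probe sets. Sat1, which acetylates polyamines for export, read 1718 in adult ovary and 160.3 in adult testis, 10.7-fold higher, and Srm, the spermidine synthase, read 1971 in adult ovary and 381 in adult testis, 5.17-fold higher. Azin2, an antizyme inhibitor, had a log2 ratio of ≤ -4.32, though its other probe set had a log2 ratio of 0.99.

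Prostaglandin genes were higher in 5 of 8 cases above the floor. Ptgfr, the receptor through which prostaglandin F2-alpha starts regression of the corpus luteum, read 2258 in adult ovary and only the floor value in adult testis, at least 30.0-fold higher, with its 5 probe sets between 0.67 and 4.91 on the log2 scale. Ptges, the prostaglandin E synthase, was at least 16.9-fold higher, and Ptger2, a receptor for prostaglandin E2 that is needed for cumulus expansion, was at least 15.0-fold higher. Ptgis and Hpgd were higher too, at 2.69 and 2.54. Ptgds, the prostaglandin D synthase found in Sertoli and Leydig cells, was lower, with 614 in adult ovary and 6156 in adult testis, 10.0-fold lower. Retinoid genes were higher in 3 of 11, Crabp2 (≥2.82), Lrat (≥2.59) and Dhrs3 (2.09), and lower in 1, Rdh11 (-2.92), a retinol dehydrogenase. With the control scaling 3 of 8 prostaglandin genes and 1 of 13 retinoid genes were higher.

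**Figure D2:**
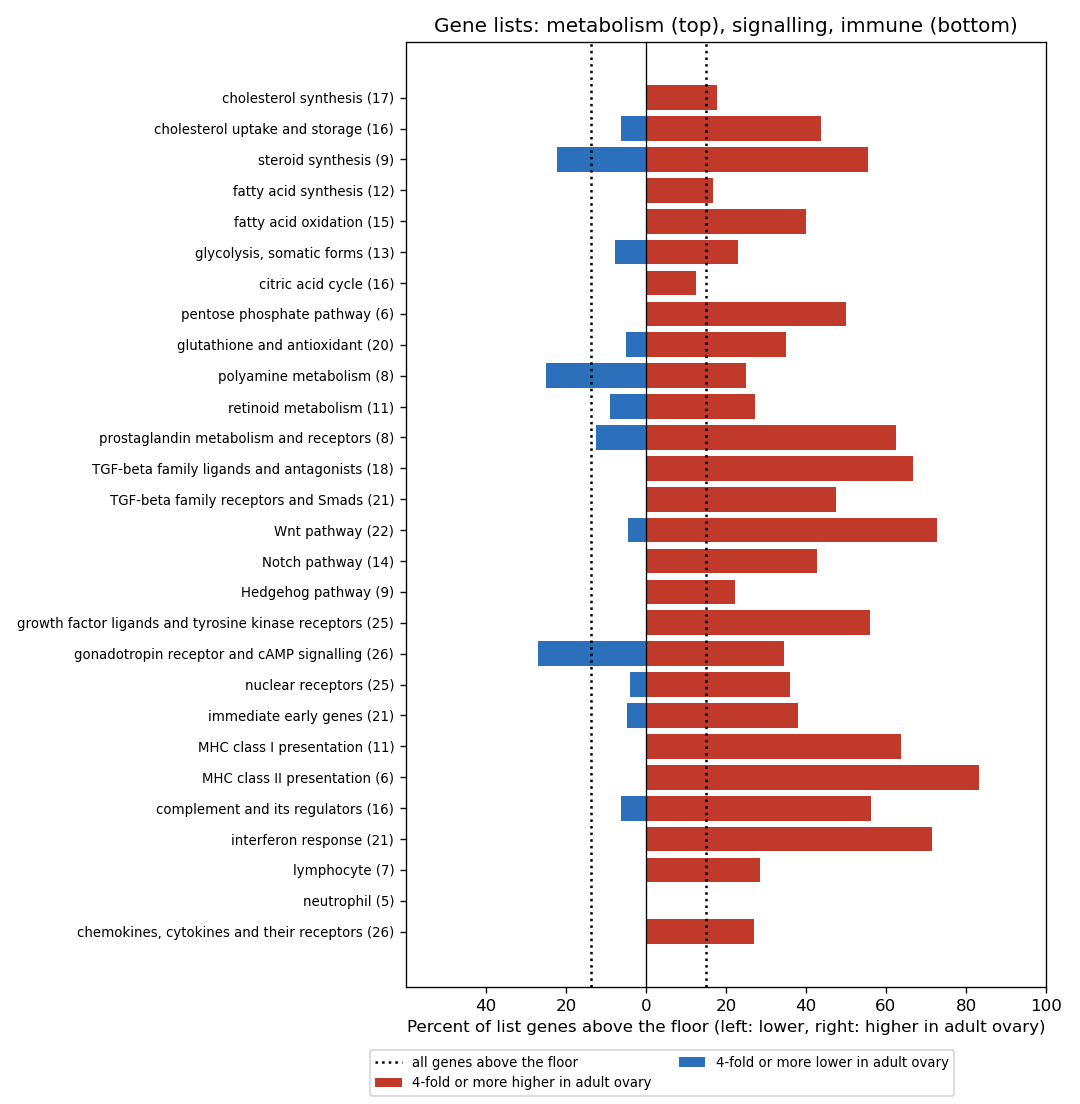
Percent of the genes of each metabolism, signalling and immune list (y axis, with the number of genes above the floor in brackets) that were called higher (bars to the right) or lower (bars to the left) in adult ovary than in adult testis (x axis), with dotted lines at the 15.1% and 13.8% of all genes. The bars to the right pass the line in most lists, those of cholesterol and fatty acid synthesis and of the citric acid cycle end near it, and only steroid synthesis, polyamine and cAMP genes pass it to the left.

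The listed signalling genes leaned to the ovary too. Of 195 measured genes in 9 lists, 181 were above the floor on 1 or both arrays, with 86 higher (47.5%), 10 lower (5.52%) and a median of 1.91. With arrays scaled to the hybridization controls 48 of 190 were higher and 17 lower, and with the mean of all probe sets 43 of 181 were higher and 7 lower.

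The TGF-beta family links oocyte, granulosa cells and pituitary, and 12 of its 18 ligands and antagonists above the floor were higher, with none lower, or 8 of 20 with the control scaling. Inhba, the beta-A subunit that activins and inhibin A share, read 5488 in adult ovary and 140.1 in adult testis, 39.2-fold higher. Inhbb, the beta-B subunit, read 5920.2 in adult ovary and 441 in adult testis, 13.4-fold higher, and Inha, the inhibin alpha subunit, read 10983 in adult ovary and 1536 in adult testis, 7.15-fold higher. Fst, the follistatin that binds activin, was 37.1-fold higher. Amh, the anti-Müllerian hormone that growing follicles secrete, read 1197 in adult ovary and only the floor value in adult testis, at least 15.9-fold higher. The oocyte's Gdf9 was 4.59-fold higher, while Bmp15, its partner, had 207 in adult ovary and only the floor value in adult testis and was not called. Bmp2, Bmp4 and Bmp6 were higher, at log2 ratios of ≥3.17, 2.21 and ≥3.06.

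Among the receptors and Smads, which relay these signals to the nucleus, 10 of 21 were higher and none lower. With the control scaling 8 were higher and 1 was lower, and with the mean of all probe sets 4 were higher. Bmpr1b, a receptor for bone morphogenetic proteins, read 1208 in adult ovary and only the floor value in adult testis, and Tgfbr2, the type II receptor for TGF-beta, read 1824 in adult ovary and 176 in adult testis, 10.4-fold higher. The target genes Id1, Id2 and Id3, inhibitors of differentiation, had log2 ratios of ≥2.86, ≥4.49 and ≥4.72. Amhr2, the receptor for anti-Müllerian hormone in granulosa, Sertoli and Leydig cells, read 5296 in adult ovary and 5352 in adult testis, a ratio close to 1. For Tgfbr1 the probe sets went from -2.17 to 1.80.

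Wnt genes were higher in 16 of 22 and lower in 1, against 9 of 24 higher with the control scaling and 6 of 22 with the mean of all probe sets. Wnt4, the ligand that drives ovarian development, read 2477 in adult ovary and only the floor value in adult testis, at least 32.9-fold higher. The secreted antagonists Sfrp4, Sfrp1 and Sfrp2 had log2 ratios of 6.23, 3.61 and ≥2.88, and the probe sets of Sfrp1 went down to -1.27. The receptors Fzd1, Fzd2, Fzd5, Fzd6 and Fzd7 were all called, at log2 ratios of 3.30, ≥2.49, ≥2.14, 2.34 and ≥2.37, and Fzd4 at 1.53 was not. Axin2, a target of the pathway, was 4.34-fold higher. Lef1, a transcription factor of the pathway, was the lower one, with the floor in adult ovary and 347 in adult testis, a log2 ratio of ≤ -2.20, and Lrp5, a co-receptor, narrowly missed the limit on the same side.

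Notch genes were higher in 6 of 14, among them the receptors Notch2 (2.24 on the log2 scale) and Notch3 (2.79), of which Notch3 is found in vessel walls. The count rests on the setting, since 1 of 15 was higher with the control scaling and 1 of 14 with the mean of all probe sets, both near the share of all genes. The ligand Jag1 was called higher by the probe set used here, with 749.9 in adult ovary and 94.4 in adult testis, but its other probe set had a log2 ratio of -2.62, a call in the opposite direction. In the Hedgehog pathway 2 of 9 were higher, Ptch1, both receptor and target (3.02), and Smo, the signal transducer (3.61), and 1 with the mean of all probe sets. Sufu, an inhibitor of the pathway, had 1.58 by the probe set used here and -4.96 by another, which was the brighter one over the adult pair of arrays.

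Tyrosine kinase receptors and their ligands were higher in 14 of 25 and lower in none, but in 5 of 26 with the control scaling and 5 of 25 with the mean of all probe sets. Pdgfrb, the receptor of pericytes and theca stroma, read 1789.5 in adult ovary and only the floor value in adult testis, at least 23.8-fold higher, and Pdgfra read 2252 in adult ovary and 235 in adult testis, 9.59-fold higher. Vegfa, the vessel growth factor that corpora lutea make, was at least 6.41-fold higher, and its receptor Kdr was 4.23-fold higher. Igf1, a granulosa growth factor, was 6.48-fold higher, and its receptor Igf1r 8.18-fold higher. Kitl, the Kit ligand of granulosa and Sertoli cells, read 2393 in adult ovary and 535 in adult testis, 4.47-fold higher, while Kit itself, carried by oocytes, theca cells and spermatogonia, had 724 in adult ovary and 358 in adult testis and was not called. Of the 10 endothelium markers 5 were higher and none lower, and they summed to 5418 in adult ovary and 1288 in adult testis, with 2 higher under the control scaling. The 8 smooth muscle markers summed to 20117 in adult ovary and 7435 in adult testis, with 4 higher, or 2 with the mean of all probe sets. The part of vessels and muscle in these receptor values was not tested.

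Cyclic AMP signalling had calls in both directions, 9 higher and 7 lower of 26, and its median, 0.90, turned to -0.23 with arrays scaled to the hybridization controls, where 3 of 27 were higher and 10 lower. With the mean of all probe sets 4 were higher and 5 lower. On the ovary side, besides Prkar2b, were Pde7b, a phosphodiesterase (≥4.36 on the log2 scale), Rgs2, a regulator of G proteins (4.22), Creb1, the cAMP response factor (2.67, or 1.52 and not called by its brightest probe set over the adult pair), the kinase subunits Prkacb (2.43) and Prkar2a (2.28), and the membrane cyclases Adcy3, Adcy6 and Adcy9, at 2.18, 2.18 and 2.44. Several of the genes on the testis side encode sperm proteins. Akap4 and Akap3, kinase anchors of the sperm tail, were at the floor in adult ovary and at 8775 and 8669.9 in adult testis. Adcy10, the soluble cyclase that bicarbonate activates in sperm, read the floor in adult ovary and 3348 in adult testis, at least 44.5-fold lower. Crem, whose activator form switches on genes of spermatids, read the floor in adult ovary and 4058 in adult testis, at least 53.9-fold lower, while another of its probe sets gave a log2 ratio of 1.26. Creb3l4, Pde1c and Akap12 were lower too, at ≤ -5.73, ≤ -3.77 and -4.05. Fshr, the receptor for follicle-stimulating hormone in granulosa and Sertoli cells, read 319 in adult ovary and 111 in adult testis, 2.88-fold higher, and was not called.

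Nuclear receptors were higher in 9 of 25 and lower in 1, against 5 of 27 higher with the control scaling and 4 of 25 with the mean of all probe sets. Nr5a2 has been given above, and its sister Nr5a1, the steroidogenic factor of both gonads, read 2648 in adult ovary and 556 in adult testis, 4.76-fold higher. The estrogen receptors were both higher, Esr1, found in theca and stroma, with 1335 in adult ovary and 119 in adult testis, 11.3-fold higher, and Esr2, found in granulosa cells, with 388 in adult ovary and only the floor value in adult testis, at least 5.15-fold higher. Nr2f2, a receptor of stromal and theca cells, was at least 9.67-fold higher, and Pparg, a regulator of lipid genes, was at least 6.82-fold higher. Nr6a1, the germ cell nuclear factor, was the lower one, with 202 in adult ovary and 2599 in adult testis, 12.8-fold lower. Pgr, the progesterone receptor that appears in granulosa cells before ovulation, read 85.4 in adult ovary and only the floor value in adult testis and was not called.

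Immediate early genes, which cells switch on within minutes of a stimulus or of dissection, were higher in 8 of 21. Egr1 read 2935 in adult ovary and 214 in adult testis, 13.7-fold higher, and Jun read 1135 in adult ovary and 99.0 in adult testis, 11.5-fold higher. Fos, Ier2, Ier3, Klf6, Myc and Socs3 completed the group, at log2 ratios of ≥2.87, ≥3.09, ≥4.22, 2.95, ≥2.48 and ≥2.84. Klf4, a factor of postmeiotic germ cells and Sertoli cells, was lower, with 292 in adult ovary and 2438 in adult testis, 8.35-fold lower. The sources used here do not give the time from death to lysis.

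Immune genes were higher in 45 of the 92 above the floor (48.9%) and lower in 1 (1.09%), of 107 measured in 7 lists, with a median of 1.95. With arrays scaled to the hybridization controls 22 of 95 were higher and 3 lower, and with the mean of all probe sets 35 of 92 and 1. Of the higher genes 15 were in the interferon response list, 9 in complement, 7 in class I and 5 in class II antigen presentation. With the control scaling these were 8 of 20, 4 of 17, 4 of 11 and 3 of 7, in the same order.

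Antigen presentation by MHC class I was higher in 7 of 11 genes and lower in none. The class I heavy chain H2-D1 read 5276 in adult ovary and 747 in adult testis, 7.06-fold higher, and the light chain B2m read 7054 in adult ovary and 1524 in adult testis, 4.63-fold higher. The immunoproteasome subunits Psmb8, Psmb9 and Psmb10, which cut peptides for these molecules, had log2 ratios of ≥3.17, ≥2.14 and 3.44, and the peptide pumps Tap1 and Tap2 ≥2.62 and 2.83. H2-K1 missed the limit at 1.92. Probes for class I heavy chains can share sequence among these near-identical genes, so which of them is read is uncertain.

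Class II presentation was higher in 5 of 6 genes above the floor. Cd74, the invariant chain, read 3394 in adult ovary and 310.0 in adult testis, 10.9-fold higher, and the chains H2-Aa, H2-Ab1 and H2-Eb1 had log2 ratios of 3.46, 2.14 and 2.62. Ctss, the protease that trims the invariant chain, was 11.0-fold higher. Complement genes were higher in 9 of 16, and the 3 chains of C1q, C1qa, C1qb and C1qc, were among them at ≥3.05, 3.01 and 3.06. Cd46, a complement regulator that in rodents is carried by the sperm acrosome, was the lower one, with the floor in adult ovary and 734 in adult testis, at least 9.75-fold lower.

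The markers of macrophages moved with these genes only in part. Of 13 macrophage markers above the floor 6 were higher and 1 lower, or 4 and 1 with the control scaling, and 10 had a ratio above 1. The list summed to 16489 in adult ovary and 9651 in adult testis, and Aif1 alone gave 6132 of the testis sum. Tyrobp, an adaptor of myeloid receptors, read 859 in adult ovary and only the floor value in adult testis, at least 11.4-fold higher, and Csf1r, the receptor that macrophages need, read 2027 in adult ovary and 589.9 in adult testis and was not called. Itgam was at the floor on both arrays. Aif1, a macrophage protein, was the lower one, with 382 in adult ovary and 6132 in adult testis, 16.1-fold lower. The name of its only probe set above the floor marks possible cross-hybridization. Without such probe sets 4 of 10 macrophage markers above the floor were higher and 0 lower. Mrc1 and Cd163 were not called, at log2 ratios of -0.39 and -0.18. Among lymphocyte genes 2 of the 7 above the floor were higher, Ptprc (≥2.41 on the log2 scale) and Thy1 (≥2.70), which stromal cells carry too, and 6 more were at the floor on both arrays, Cd4 and Cd79a among them. With either of the other settings 1 lymphocyte gene was higher. No neutrophil gene of 5 above the floor was called, though 1 was lower with the control scaling. How far the number of macrophages enters the immune values was not tested.

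Interferon response genes were higher in 15 of 21, with none lower and a median of 2.42. Bst2, the membrane protein that tethers viruses, read 2442 in adult ovary and 94.9 in adult testis, 25.7-fold higher. Ifitm2, Ifitm1 and Ifitm3, which block virus entry, had log2 ratios of 3.89, 3.71 and 3.28. Gbp2, a GTPase induced by interferon gamma, read 1093 in adult ovary and only the floor value in adult testis, at least 14.5-fold higher. Irf9 and Irf7, factors that carry the interferon signal, stood at 2.42 and 1.42, and Mx1, an antiviral GTPase, at ≤ -0.13, with the floor in adult ovary and 82.3 in adult testis. Among chemokines, cytokines and their receptors 7 of 26 were higher (2 with the control scaling and 3 with the mean of all probe sets), Ccl6 (≥3.69) among them, and Il1b, Tnf and Cxcl10 were not called, at -0.16, ≤ -0.13 and ≥1.17.

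Interferon-induced genes are known for a promoter element, the interferon-stimulated response element, to which factors of the IRF and STAT families bind. Its letters, GAAA, any 2 bases and GAAA again, were searched on both strands in RefSeq promoter windows of assembly GRCm38.p6, 300 bases each, from 250 before to 50 after a gene's start. Of the 26 interferon and class I genes with a window, 12 held it, against 1079 of 27025 genes with a window (3.99%) and 3.44% of all 32851 windows. Of those 12, 9 were higher in adult ovary, and so were 9 of the 14 without it. The windows of 3 called genes of the 12, Bst2, Ifitm2 and Gbp2, and of Stat2, a factor of the pathway that held the letters and was not called (≥0.46 on the log2 scale), are shown on the gene's own strand with the element in capitals. In Bst2 a pair of overlapping copies forms 1 run, and in Gbp2 and Stat2 the letters lie on the opposite strand.
Bst2: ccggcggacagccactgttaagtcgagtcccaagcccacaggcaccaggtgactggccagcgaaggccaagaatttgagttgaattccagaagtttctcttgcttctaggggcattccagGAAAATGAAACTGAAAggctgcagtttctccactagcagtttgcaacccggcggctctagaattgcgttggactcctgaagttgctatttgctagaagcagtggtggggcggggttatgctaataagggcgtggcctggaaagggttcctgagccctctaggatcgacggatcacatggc
Ifitm2: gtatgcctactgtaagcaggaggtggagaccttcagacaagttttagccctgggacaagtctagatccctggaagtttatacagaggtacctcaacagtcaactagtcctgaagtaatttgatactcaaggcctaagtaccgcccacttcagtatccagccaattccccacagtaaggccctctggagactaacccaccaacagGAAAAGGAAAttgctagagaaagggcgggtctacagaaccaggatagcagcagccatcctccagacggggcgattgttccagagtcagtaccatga
Gbp2: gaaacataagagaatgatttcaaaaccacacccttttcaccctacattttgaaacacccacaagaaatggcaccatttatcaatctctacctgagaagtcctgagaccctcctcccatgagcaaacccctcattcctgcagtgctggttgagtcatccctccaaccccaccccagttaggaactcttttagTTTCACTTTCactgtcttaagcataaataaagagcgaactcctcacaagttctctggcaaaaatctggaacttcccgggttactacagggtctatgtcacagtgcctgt
Stat2: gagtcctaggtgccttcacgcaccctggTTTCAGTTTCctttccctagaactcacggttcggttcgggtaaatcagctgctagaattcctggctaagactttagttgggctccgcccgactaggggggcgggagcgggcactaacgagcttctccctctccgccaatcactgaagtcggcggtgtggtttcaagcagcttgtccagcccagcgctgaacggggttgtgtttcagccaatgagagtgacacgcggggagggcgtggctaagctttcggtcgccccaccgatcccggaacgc
The positions of these windows are chr8:71537423-71537722 on the minus strand for Bst2, chr7:140955912-140956211 on the minus strand for Ifitm2, chr3:142620413-142620712 on the plus strand for Gbp2 and chr10:128270248-128270547 on the plus strand for Stat2. A match of letters is a description and shows no bound factor.

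Pairs of a germ cell form and a somatic form of a protein were listed to show which form each gonad used, and 36 of 44 pairs were measured. Of 33 germ cell forms 28 were lower in adult ovary, and the median log2 ratio was -5.26. Of all 33, 19 were at the floor in adult ovary, among them Nxf2, which was not called. Of 34 somatic forms 16 were higher, 1 was lower and 17 were neither, among them Taf7 at the floor on both arrays. The median of the 34 was 1.97 on the log2 scale. Of all genes 15.1% were higher. The counts of both kinds of form are given only for the trimmed-mean scale and 1 probe set a gene. The control scaling lowers ratios of ovary over testis. With it the median of cholesterol synthesis went from 1.06 to 0.09 and that of steroid synthesis from 3.02 to 2.05. Such a fall would take the call from Cstf2 (2.01), Acsbg1 (2.06), Cox6b1 (2.11), Slc25a5 (2.12) and Psma7 (2.26). The same holds for Ccna2 (2.37), Pgam1 (2.41), Cox8a (2.73) and Slc25a4 (2.90), if each keeps its probe set. The other higher somatic forms lay at 3.03 (Ddx3x) or more. A level is compared only within a gene, since probe sets differ in brightness.

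In energy metabolism both glycolytic and mitochondrial pairs split. Pgk2, the testis phosphoglycerate kinase, read the floor in adult ovary and 7477 in adult testis, at least 99.3-fold lower, and Pgk1 read 6982 in adult ovary and 784 in adult testis, 8.91-fold higher. Pdha2, the testis subunit of pyruvate dehydrogenase, read the floor in adult ovary and 4721 in adult testis, and its X-linked counterpart Pdha1 read 1741 in adult ovary and 179 in adult testis, 9.74-fold higher. For lactate dehydrogenase, Ldhc was far lower, while Ldha had 5014 in adult ovary and 8225 in adult testis and Ldhb 6070.3 in adult ovary and 2116 in adult testis, neither called. Cyct, the testis cytochrome c, was at least 38.3-fold lower, and Cycs, the somatic one, had a log2 ratio of 0.66. Subunits of cytochrome oxidase split too: Cox6b2 and Cox8c had log2 ratios of -3.71 and -3.80, and Cox6b1 and Cox8a of 2.11 and 2.73. Slc25a31, the germ cell carrier that exchanges ADP for ATP, read the floor in adult ovary and 1616 in adult testis, and the somatic carriers Slc25a4 and Slc25a5 were 7.46-fold higher and 4.36-fold higher.

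Among pairs of the chromosome, cell cycle, transcription and translation machinery the split was only partial. The somatic forms Gtf2a1 and Brd2, of the transcription machinery, were not called, at 1.32 and -0.40 on the log2 scale. Smc1b, the meiotic cohesin subunit, read the floor in adult ovary and 2228 in adult testis, at least 29.6-fold lower, and the X-linked Smc1a read 2029 in adult ovary and 213 in adult testis, 9.53-fold higher. Stag3, another meiotic cohesin subunit, was at least 51.3-fold lower, the X-linked Stag2 was 9.46-fold higher and Stag1 was not called at 1.69. A further probe set had a log2 ratio of 0.57 for Smc1a and -0.84 for Stag2. The 6 probe sets of Stag1 went from -1.07 to 1.69. Oocytes use Smc1b and Stag3 as well, and both were at the floor in adult ovary. Ccna1, the cyclin of male meiosis, was at least 27.3-fold lower, and Ccna2, the cyclin of dividing cells, was 5.16-fold higher. Ddx4, the germ cell helicase, read 107 in adult ovary and 4181 in adult testis, 39.0-fold lower, and Ddx3x read 5999 in adult ovary and 735 in adult testis, 8.16-fold higher. Rpl39l, a ribosomal protein form of the testis, was 65.4-fold lower, and Rpl39 was dim on both arrays with 207 in adult ovary and 294 in adult testis.

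Some pairs did not split. Tbpl1, a relative of the TATA-binding protein that spermatids need, was 22.9-fold lower by the probe set used here (-0.17 on the log2 scale by the other), and Tbp itself was lower too, with 345 in adult ovary and 1802 in adult testis, 5.22-fold lower. The actin capping subunits Capza3 and Capza1, the calcineurin subunits Ppp3cc and Ppp3ca, and the poly(A)-binding proteins Pabpc2 and Pabpc1 had a lower first form, at ≤ -6.19, -3.72 and ≤ -6.39, and an uncalled second one, at -0.95, -0.86 and -0.18. Of the 5 listed germ cell forms that were not lower, Prkar2a was higher, so its listing as the germ cell form has no support in these arrays. Vdac3, Cstf2t, Csnk2a2 and Nxf2 were not called, at -0.29, 0.04, -1.66 and ≤ -1.46.

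**Figure D3:**
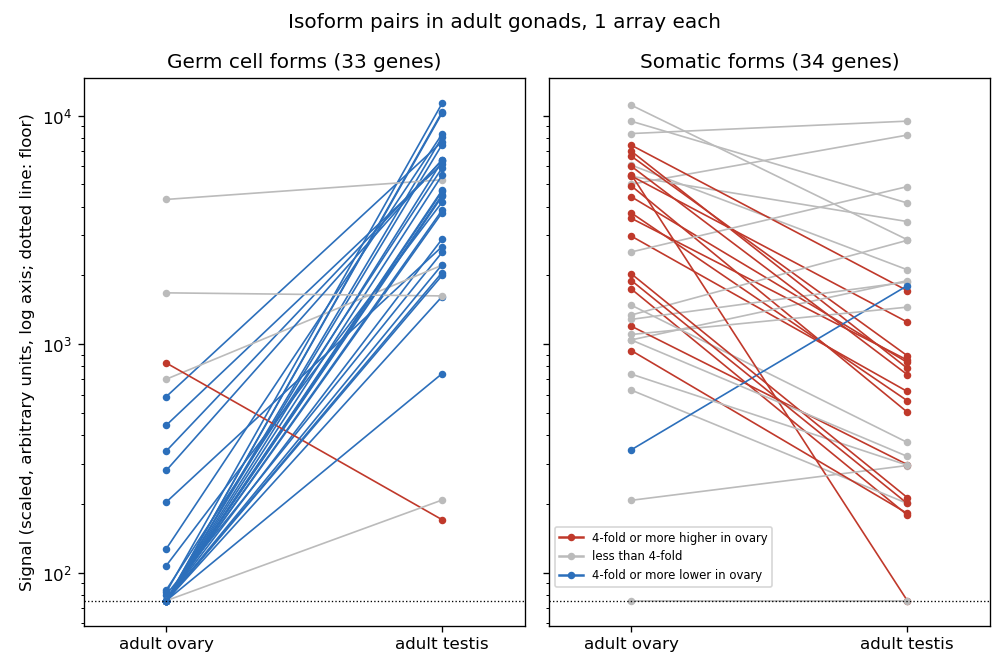
Scaled signal (y axis, arbitrary units, log scale, dotted line at the floor) of the 33 germ cell forms (left panel) and the 34 somatic forms (right panel) of the pairs in adult ovary and adult testis (x axis), with a line for each gene. Of the 33 germ cell forms 28 are lower in adult ovary and 19 are at its floor, 1 of these (Nxf2) without a call. Of the somatic forms 16 are higher there.

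Of the 8 X-linked somatic forms 7 were higher, all but Rpl39, and the whole X chromosome was therefore counted too. Of 494 X-linked genes above the floor 161 were higher (32.6%) and 59 lower (11.9%), against 2001 (14.5%) and 1906 (13.9%) of 13755 autosomal genes, and the median log2 ratio was 1.22 on the X and 0.34 on the autosomes. In the neonatal arrays, 10 of 442 X-linked genes were higher in ovary (2.26%), against 1.93% of autosomal genes, and in the fetal arrays 5 of 437 (1.14%), against 0.248%. With arrays scaled to the hybridization controls 14.1% of X-linked genes were higher in adult ovary, against 5.52% of autosomal genes, a larger share on the X there too. With the mean of all probe sets the shares were 17.9% and 7.85%.

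Some of the brightest X-linked genes on either side were picked out after their values were seen. Rps4x, a ribosomal protein, read 10393 in adult ovary and 1452 in adult testis, 7.16-fold higher, and Ndufb11, a subunit of respiratory complex I, read 5446 in adult ovary and 896 in adult testis, 6.08-fold higher. Against this trend, Akap4, Tsga8 and Cypt3, genes of spermatids, were at the floor in adult ovary and at 8775, 6441 and 5647 in adult testis.

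**Figure D4:**
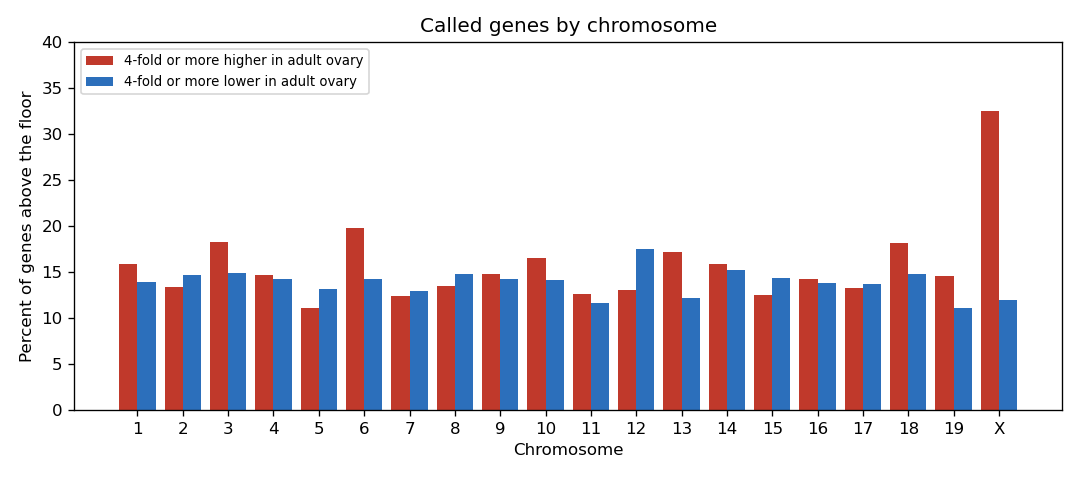
Percent of genes above the floor that were higher or lower by 4-fold or more in adult ovary (y axis) for each chromosome (x axis). The X has 32.6% of its genes higher, above every autosome, and 11.9% lower.

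The probe set brightest over the 6 arrays did not always speak for its gene. Of 5815 genes with 2 or more probe sets above the floor, 1546 (26.6%) had log2 ratios more than 2 apart, and in 56 (0.963%) 1 probe set was called higher and another lower. Of these 56, that probe set said higher for 37, lower for 10 and neither for 9. The probe set brightest over the adult pair of arrays, a choice made after seeing the data, said higher for 23, lower for 28 and neither for 5. For all genes this choice changed the probe set of 790 (4.34%) and gave 2135 higher and 2137 lower. Of the 56 genes, 9 involved a called probe set whose name marks possible cross-hybridization. Of 1730 called genes with several probe sets, 79.7% had the same sign in all of them. In the metabolism, signalling and immune lists 59 of 457 measured genes had probe sets with log2 ratios more than 2 apart.

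The clearest opposite cases were not dim. Dpysl3, a protein of the neuronal cytoskeleton, had a probe set at 2124 in adult ovary and 186 in adult testis and another at 231 in adult ovary and 5881 in adult testis. Atl3, an atlastin that shapes the endoplasmic reticulum, had 1426 in adult ovary and 177 in adult testis on one probe set, and 208 in adult ovary and 7005 in adult testis on another. Pias2, a SUMO ligase, had 579 in adult ovary and 81.9 in adult testis on one, and 609 in adult ovary and 6859 in adult testis on another. Cast, the inhibitor of calpain, had 1338 in adult ovary and 148 in adult testis on one, and 339 in adult ovary and 2259 in adult testis on another, with the third on the ovary side too.

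The same held for Sgms2, a sphingomyelin synthase, Dyrk2, a kinase, Sh3kbp1, an endocytic adaptor, and Ccdc50. Their lowest log2 ratios were -3.19, -2.85, -2.76 and -3.51, and their highest 3.52, 3.07, 3.01 and 2.74, in that order. For such genes a single direction cannot be given. Among the genes described above as higher, another probe set had a log2 ratio below 1 for Adcy3 (0.89), Creb1 (-0.92), Elovl1 (0.04), Fzd6 (0.21), H2-D1 (0.81), Igf1r (0.13), Kitl (-0.57), Nr2f2 (0.66), Pde7b (0.10), Pdgfra (0.58), Pfkl (0.24), Pgd (0.53), Pgk1 (0.40), Sc5d (0.54), Tkt (0.52) and Vegfa (0.28). Among those described as lower, one had -0.57 for Lef1, -0.33 for Nr6a1 and -0.57 for Pde1c. Genes whose other probe set has been given at their own values are not repeated. Whether the probe sets read different transcripts of a gene was not tested, as their target sequences were not used here. Cstf2, the X-linked member of the Cstf2t pair, is among the 56, with probe sets from -3.10 to 2.01.

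**Figure D5:**
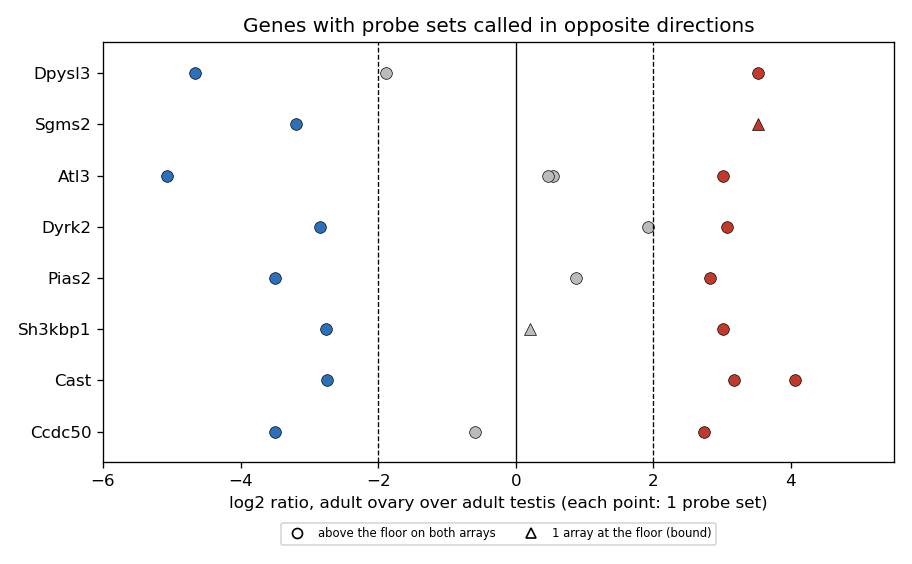
Log2 ratio of adult ovary over adult testis (x axis) of each probe set of the 8 genes (y axis) with the clearest calls in opposite directions, with triangles where an array was at the floor and colours for probe sets called higher or lower. Each gene has a probe set beyond 2 and another beyond -2.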

How the data were processed

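Expression of 6 mouse gonad arrays was deposited as intensity values on a linear scale, 1 for each of 45101 probe sets and array. Per the submitters' processing notes, GCOS version 1 was used, for a step they do not name. The authors' background correction, probe summary and scaling were not given in the sources used here. How far dim ratios are compressed is therefore unknown. The number of arrays limits the precision, and no depth applies.

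Arrays were multiplied to a common 2% trimmed mean (factors 0.945 for adult ovary and 0.913 for adult testis), signals were floored at the pooled median of 75.3, and log2 ratios were formed as adult ovary over adult testis. The platform annotation named 35890 probe sets, 34945 with a single symbol, giving 18193 genes, and the probe set with the highest mean scaled signal over the 6 arrays stood for a gene. A call is a ratio of 4 or more. No test was run, since each group has 1 array. Simulated data were built from the adult testis values of these 18193 genes with 200 changed and a set noise SD of 0.2 on the log2 scale. Calls were made for 0 of 50 genes changed 2-fold, 22 of 50 at 4-fold, 50 of 50 at 8-fold and 50 of 50 at 16-fold. None of 17993 unchanged genes was called. The changed genes lay above the floor, were all raised in the simulated ovary and moved in every probe set. Lowered genes, changes at the floor and disagreeing probe sets were therefore not tried. The noise of 0.2 is below the spread of 0.65 between probe sets, so the simulation checks the procedure and gives no rate of false calls for the real arrays.

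Genes named were, per direction, the 6 with the largest ratio among those with both signals above the floor and the 6 brightest with the other array at it, the 8 clearest cases of opposite probe sets, the isoform pairs and the members of 28 pathway lists and 16 marker lists. The comparison and the lists were chosen with earlier results of these data known. Gene names and chromosomes came from the RefSeq table of assembly GRCm38.p6. Promoter windows were searched for 4 motifs, of which the cyclic AMP element TGACGTCA was in none of 13 spermatid windows (1.79% of all windows), the letters CAAGGTCA of the steroidogenic factor in none of 8 steroid windows (1.56%), and the sterol element TCACNCCAC in 1 of 14 cholesterol synthesis windows, that of Hmgcs1 (1.24%). Alternatives changed the scaling, the floor, the probe set rule and the ratio, 1 at a time. Analyses used Python 3.11.15, numpy 2.4.6, pandas 2.3.3, scipy 1.17.1 and matplotlib 3.10.9.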

Additional observations from a re-analysis of the deposited data

How the results depend on the processing

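No paired analysis was possible because each group has 1 array. The numbers of genes higher and lower in adult ovary, 2166 and 1980, and the share of calls that were higher, 52.2%, moved with the settings. With arrays scaled to the 9 hybridization controls there were 894 higher and 3216 lower genes (21.8% of calls higher). With all 18 such controls, a setting chosen after seeing the data, there were 997 higher and 3050 lower (24.6%). A floor at the 75th percentile gave 787 higher and 1196 lower (39.7%). A mean of all probe sets gave 1177 higher genes and 1624 lower (42.0%). A ratio limit of 2 gave 4901 and 3218 (60.4%), and a limit of 8 gave 673 and 1328 (33.6%). X-linked genes that were higher, 161, became 74 with the hybridization controls, 81 with all 18 of them, 67 with the higher floor, 89 with the mean of all probe sets, 266 at a ratio of 2 and 58 at a ratio of 8. Genes whose probe sets disagreed, 1546, became 2635 for a 25th percentile floor, 480 for a 75th percentile floor and 730 at a ratio of 8. Unscaled deposited signals, scaling to equal medians, quantile normalization, a floor from the adult arrays alone, an added 16 in place of the floor and leaving out cross-hybridizing probe sets, and also the brightest probe set over the 2 adult arrays alone, kept the counts of genes higher and lower within 1.5 times.

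The median over genes with both adult signals above the floor, 0.54 on the log2 scale, shifted by -0.84 with the hybridization controls, by -0.73 with all 18 and by -0.15 with quantile normalization. Of 525 list medians under alternatives 123 moved by more than the spread of 0.65 between probe sets. Signs turned for glycolysis (0.10 with quantile normalization), polyamines, cyclic AMP signalling, lymphocyte genes (-0.10 with the hybridization controls), neutrophil genes (0.36 with a 25th percentile floor) and spermatogonia markers (0.49 with a 75th percentile floor). Sign changes of single genes were counted only where the main log2 ratio was at least 2 or at most -2. There the sign changed for 7 named genes, all with opposite probe sets: Cast, Ccdc50, Cstf2, Dpysl3, Pias2, Sgms2 and Sh3kbp1. Smaller ratios could change sign too. With the brightest probe set over the 2 adult arrays, Sufu went from 1.58 to -4.96 and Stag1 from 1.69 to -0.32. Scaling to the 9 controls gave -3.70 for Cast, -4.47 for Ccdc50 and -5.63 for Dpysl3, and scaling to all 18 gave -3.59 for Cast and -5.52 for Dpysl3. The brightest probe set was chosen anew at each scale. Here it was the lower probe set of these genes, with main-scale log2 ratios of -2.74 for Cast, -3.51 for Ccdc50 and -4.67 for Dpysl3. The mean of all probe sets gave -0.34 for Ccdc50, -0.11 for Cstf2, -1.01 for Dpysl3, 0.066 for Pias2 and 0.16 for Sgms2, and leaving out cross-hybridizing probe sets gave -3.51 for Ccdc50. The brightest probe set over the 2 adult arrays gave -2.74 for Cast, -3.51 for Ccdc50, -4.67 for Dpysl3 and -2.76 for Sh3kbp1. Apart from settings that shift every ratio, select fewer genes or use other probe sets by construction, the cause was not tested. With no replicates and an unknown background, dim genes are the least certain.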

Other observations

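Markers listed for cells other than those of follicles and tubules were read too, and which cells gave their signals was not tested. Of 9 oviduct and duct epithelium markers above the floor 5 were higher in adult ovary and none lower, summing to 4906 in adult ovary and 1747 in adult testis. Upk1b and Upk3b, plaque proteins that mesothelium also carries, had log2 ratios of ≥3.39 and ≥3.35, and the keratin Krt18 had 2.98. Ovgp1, the secreted glycoprotein that marks the oviduct itself, had ≤ -1.32 and Pax8 was at the floor on both arrays. Of 7 epididymis markers measured 5 were at the floor on both arrays, and Spink8, a protease inhibitor of the epididymis, was lower in adult ovary at ≤ -2.16. The adrenal cortex markers above the floor, Cyp21a1 and Cyp11b1, were not called, at -0.99 and ≤ -0.56.

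Fat markers disagreed with each other. Lpl, the lipoprotein lipase, was higher in adult ovary with a log2 ratio of 3.52, while Adipoq, the adiponectin of fat cells, was at the floor in adult ovary and at 653 in adult testis, and Cidec and Lep were at the floor on both arrays. Probe sets without any gene name in the annotation numbered 9160. Of these, 2744 were above the floor, with 190 higher (6.92%) and 177 lower (6.45%) in adult ovary.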
